A study of Mus musculus with 13 samples.

Results

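Distant RAD21 sites without CTCF are the regions described here: places in embryonic mouse limb chromatin where the cohesin subunit RAD21 was called away from gene starts and away from CTCF. They were taken from the peak list of wild-type whole limbs after peak entries of 1 interval had been merged. A site qualified on an autosome when none of the 3 wild-type CTCF lists had a peak within 1 kb of it and its summit was over 1 kb from every protein-coding transcription start site (TSS) of GENCODE M21. Of 32465 autosomal RAD21 intervals, 5730 met the rule. They are set beside the 22404 RAD21 intervals that were equally far from a TSS but had CTCF within 1 kb, called distant RAD21 sites with CTCF below. The remaining intervals lay within 1 kb of a TSS, 903 without and 3428 with CTCF. The sites were chosen by measured values, namely the RAD21 calls of the whole-limb list and the lack of wild-type CTCF calls, so these and the distance from a TSS are given as description. At the edges of the rule, the closest CTCF peak to any site was 1001 bp away, beside Cdh5 (RAD21 −log10 q 6.42), and the nearest interval outside had CTCF at 995 bp, beside Axin2 (4.64). For the TSS, a site beside H1fnt lay just inside at 1001 bp (1.36) and an interval beside Olfr776 just outside at 979 bp (1.92).

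All embryos were at E12.5, the stage at which digits are being laid down. Homozygous embryos of 4 HoxD deletion alleles, obtained from heterozygous crosses on the B6CBAF1 strain, gave CTCF lists. For delHoxd(8-13)d11lac, delHoxd(1-13)d9lac and delHoxd(attP-rel5)d9lac these came from whole forelimbs and hindlimbs. The other allele, delHoxd(8-13)rXII, called del(8-13)rXII below, also gave a RAD21 list that was sequenced in 2 runs, while its CTCF list came by ChIPmentation (adapters inserted by Tn5) from the forelimbs of 4 pooled embryos. Wild-type B6CBAF1 whole forelimbs and hindlimbs gave a CTCF and a RAD21 list, and wild-type CD1 embryos gave CTCF from distal and proximal forelimbs and RAD21 and SMC1 from distal forelimbs. Strain, tissue and library therefore cannot be told apart between the whole-limb and distal lists, nor allele and library between wild type and deletion. SMC1 chromatin was fixed for 25 minutes and RAD21 chromatin for 10 or 25; the CTCF libraries other than the ChIPmentation one had 10. Each group had 1 library, so shares carry Wilson 95% intervals that cover counting error only, and no p-value was computed. The lists held 15549 autosomal intervals of RAD21 in del(8-13)rXII, 16065 of distal RAD21, 22617 of distal SMC1 and 32465 of whole-limb RAD21. Read depth is unknown, and an absent peak means that none was called. A peak list does not hold expression, so the dissected tissue could not be checked against its marker genes.

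Cohesin is a ring built from SMC1, SMC3 and RAD21 with a STAG subunit; it travels along chromatin, extrudes loops and accumulates where bound CTCF holds it. Cohesin away from CTCF has been described at promoters and enhancers, where its loader NIPBL is also found. tRNA genes, transcribed by RNA polymerase III from an internal A box and B box that TFIIIC binds, are another known place: in budding yeast they gather the related condensin complex and the cohesin loader. In the limb, loops between distant enhancers and genes such as those of the HoxD cluster are the setting in which these proteins are studied.

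The sites fell into a few kinds of sequence, and examples are printed here because the results differ by kind. All are 151-base windows centred on a RAD21 summit, taken from RefSeq's GRCm38.p6. The first set holds 3 of the strongest sites at tRNA genes, read on the strand of the tRNA gene, with capitals for the exact word GGTTCGA of the B box. They lay at chr11:107012794-107012944 (plus strand), chr5:149229008-149229158 (minus) and chr5:125404249-125404399 (minus). Each holds 1 copy of the word.
n-TRccg1 beside Kpna2: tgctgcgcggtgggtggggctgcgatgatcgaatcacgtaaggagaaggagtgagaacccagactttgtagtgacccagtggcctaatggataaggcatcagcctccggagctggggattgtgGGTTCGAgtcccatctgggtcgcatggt
n-TNgtt14 beside Alox5ap: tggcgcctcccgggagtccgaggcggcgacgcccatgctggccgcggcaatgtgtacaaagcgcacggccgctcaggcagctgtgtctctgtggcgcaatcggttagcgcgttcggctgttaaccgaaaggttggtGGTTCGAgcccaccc
n-TAtgc10 beside Dhx37: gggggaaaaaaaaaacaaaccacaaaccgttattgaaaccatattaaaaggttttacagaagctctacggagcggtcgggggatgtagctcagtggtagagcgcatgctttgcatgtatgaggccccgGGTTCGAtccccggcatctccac

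The second set holds the 2 strongest sites in tandem repeats, in an intron of Dclk2, a microtubule-associated kinase gene (chr3:86910433-86910583, plus strand), and far from Etaa1 (chr11:18332016-18332166, plus strand). Capitals mark the most frequent 7-base word and so show the repeated unit.
Dclk2 tandem repeat: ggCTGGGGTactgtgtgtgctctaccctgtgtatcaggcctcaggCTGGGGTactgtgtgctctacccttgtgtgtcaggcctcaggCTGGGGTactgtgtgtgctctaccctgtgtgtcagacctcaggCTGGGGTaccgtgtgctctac
Etaa1 tandem repeat: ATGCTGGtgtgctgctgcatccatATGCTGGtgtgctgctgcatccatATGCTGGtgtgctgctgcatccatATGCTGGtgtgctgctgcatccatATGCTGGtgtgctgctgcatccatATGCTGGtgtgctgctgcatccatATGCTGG

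The third set holds the 2 strongest sites in unmasked sequence with a single copy in the genome, 141 kb from Tbl1xr1 (chr3:21936024-21936174, plus strand) and beside Ssbp2 (chr13:91370991-91371141, plus strand), with CG dinucleotides in capitals. The Ssbp2 window is the richer in them.
Tbl1xr1 site: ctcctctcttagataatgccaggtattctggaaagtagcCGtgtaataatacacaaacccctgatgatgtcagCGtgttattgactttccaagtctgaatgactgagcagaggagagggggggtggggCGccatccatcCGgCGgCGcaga
Ssbp2 site: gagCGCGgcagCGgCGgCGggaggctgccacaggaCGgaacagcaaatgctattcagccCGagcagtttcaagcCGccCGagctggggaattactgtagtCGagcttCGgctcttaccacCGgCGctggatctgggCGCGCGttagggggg

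The last set holds 2 sites that carry a CTCF motif without a wild-type CTCF peak, beside Pthlh (chr6:147244405-147244555, plus strand) and Klf4 (chr4:55478033-55478183, plus strand). Capitals mark the best match of a 19-base CTCF matrix built from the strongest whole-limb CTCF summits.
Pthlh site: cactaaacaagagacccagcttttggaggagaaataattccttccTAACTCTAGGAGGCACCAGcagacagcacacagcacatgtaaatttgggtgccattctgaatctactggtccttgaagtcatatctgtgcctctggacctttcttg
Klf4 site: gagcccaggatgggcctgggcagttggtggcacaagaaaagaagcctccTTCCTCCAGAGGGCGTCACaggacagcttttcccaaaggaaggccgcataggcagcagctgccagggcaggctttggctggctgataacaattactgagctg

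The sites were mostly weak peaks in gene-poor sequence. Strength is given as the −log10 of the q-value that the authors' peak caller assigned to a summit, so a larger value means a stronger call within a list. Its median was 3.37 at the 5730 sites without CTCF (quartiles 2.43 and 4.89, highest 61.7) and 24.5 at distant sites with CTCF. A −log10 q of at least 10 was reached by 259 sites (4.52%), against 16349 (73.0%) of the distant sites with CTCF. The 903 intervals within 1 kb of a TSS without CTCF were weak as well, with a median of 3.79 and 53 (5.87%) that reached 10. The summit of 3647 sites (63.6%, 62.4 to 64.9) was intergenic, against 56.9% (56.2 to 57.5) with CTCF. Another 1933 sites lay in introns, 89 in coding exons and 61 in other exons. The nearest protein-coding TSS was a median 47.3 kb away without CTCF and 19.7 kb away with CTCF, and 1973 sites (34.4%) had none within 100 kb, against 17.0%. The nearest wild-type CTCF peak was a median 12.0 kb from a site, with quartiles at 5.02 and 26.0 kb. These differences of strength and position stand beside every comparison below.

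Few of the sites were found again in the other cohesin lists. A distal forelimb RAD21 peak overlapped 134 of 5730 sites (2.34%, 1.98 to 2.76), against 61.1% (60.5 to 61.8) of distant sites with CTCF; over all 32465 intervals the share was 47.7%. SMC1, another subunit of the same ring, overlapped 114 sites (1.99%, 1.66 to 2.38), against 71.6% (71.0 to 72.2) with CTCF and 56.6% of all intervals. RAD21 in del(8-13)rXII overlapped 165 sites (2.88%, 2.48 to 3.35), against 59.2% (58.6 to 59.9) with CTCF and 46.0% of all intervals. At least 1 of these 3 lists had a peak at 334 sites (5.83%), against 79.5% with CTCF and 63.7% of all intervals. For the 903 intervals within 1 kb of a TSS without CTCF the share was 19.6% (17.1 to 22.3). At least 2 lists did so at 74 sites (1.29%; 49.2% of all intervals), and all 3 at 5 sites (0.0873%; 37.3% of all intervals). Among the 334 sites, 104 were shared with del(8-13)rXII RAD21 alone, 84 with SMC1 alone and 72 with distal RAD21 alone. Pairs of lists shared 44 (distal RAD21 and del(8-13)rXII RAD21), 13 (distal RAD21 and SMC1) and 12 (SMC1 and del(8-13)rXII RAD21).

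Over all sites, tRNA genes included, the classes lay closer together in the RAD21 lists than in SMC1 within bins of whole-limb strength. For distal RAD21 this did not hold in the last bin outside tRNA genes, as given below. The last bin is open, and in it the sites without CTCF end at 61.7 while those with CTCF run to 313, so their strengths are not matched there. Among sites with a whole-limb −log10 q of at least 30, all 32 without CTCF (89.3 to 100) had a del(8-13)rXII RAD21 peak, against 97.8% (97.5 to 98.1) of 10024 with CTCF. Distal RAD21 covered 23 of the 32 (71.9%, 54.6 to 84.4), against 97.0% (96.6 to 97.3). SMC1 covered 5 of the 32 (15.6%, 6.86 to 31.8), against 94.7% (94.3 to 95.2). Between 10 and 15, SMC1 was found at 17 of 156 sites without CTCF (10.9%, 6.92 to 16.8) and at 61.9% (59.9 to 63.8) of 2290 with CTCF. In the same range, del(8-13)rXII RAD21 was found at 31 of 156 (19.9%, 14.4 to 26.8) and 25.5% (23.7 to 27.3), intervals that overlap. Distal RAD21 stood between them, at 21 of 156 (13.5%, 8.98 to 19.7) and 34.8% (32.9 to 36.8). Without tRNA genes, this range held 139 sites without CTCF. Of these, 17 were in SMC1 (12.2%, 7.78 to 18.7), 22 in del(8-13)rXII RAD21 (15.8%, 10.7 to 22.8) and 14 in distal RAD21 (10.1%, 6.09 to 16.2). Below a −log10 q of 3, where 2352 sites without CTCF lay, the shares were 0.298% for distal RAD21, 0.765% for SMC1 and 0.510% for del(8-13)rXII RAD21, against 2.21%, 12.1% and 2.41% with CTCF. tRNA genes made up 20 of the 32 strongest sites, and all 20 were in both other RAD21 lists and 0 in SMC1 (up to 16.1%). Of the 12 others, 12 were in del(8-13)rXII RAD21, 3 in distal RAD21 (25.0%, 8.89 to 53.2) and 5 in SMC1 (41.7%, 19.3 to 68.0). The SMC1 library also differs from the others in antibody and partly in fixation, whose part in the result was not tested.

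**Figure D1:**
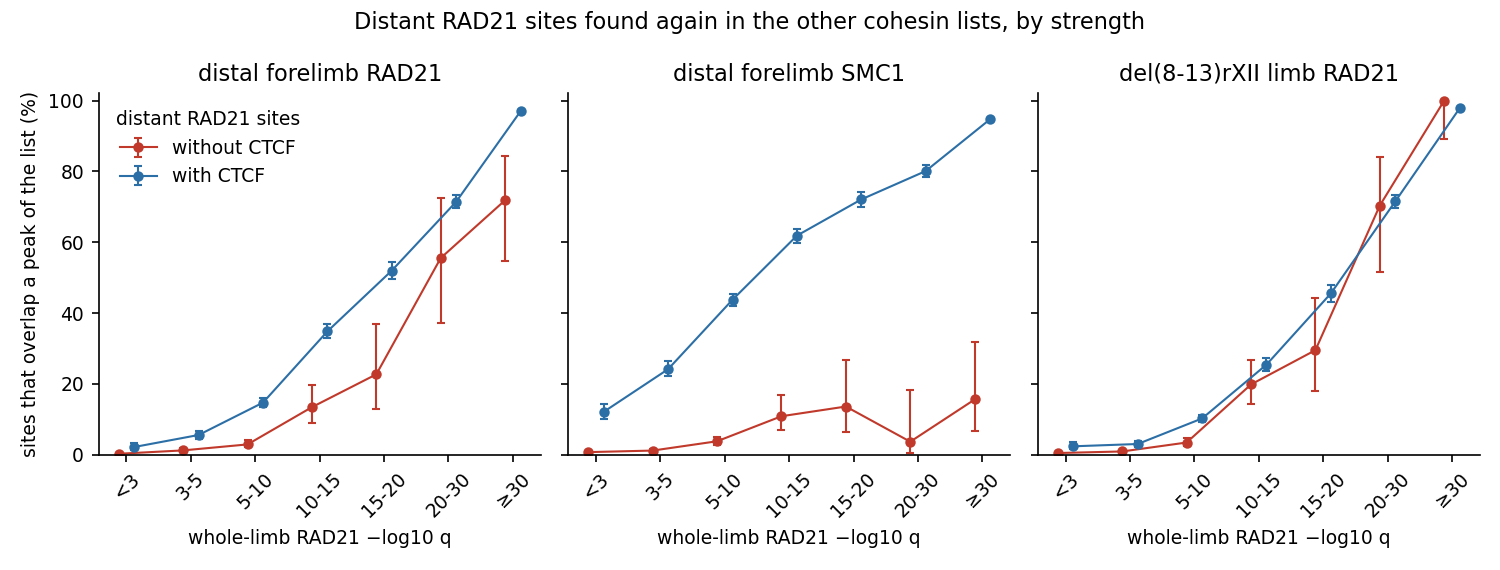
Share of distant RAD21 sites that overlapped a peak in each of the 3 other cohesin lists (y axis, percent), by whole-limb RAD21 strength (x axis, bins of −log10 q), without CTCF (red) and with CTCF (blue); bars are Wilson 95% intervals. Both classes climb with strength in the RAD21 lists, whereas for SMC1 the sites without CTCF end at 15.6% and those with CTCF at 94.7%. Sites at tRNA genes are included and make up 20 of the 32 without CTCF in the last bin.

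The sites were divided by the sequence in a 201-base window at the summit, with groups made after their values had been seen. A site was put with the tRNA genes when its summit lay within 200 bp of one. It was called a tandem repeat when, at some period of up to 80 bases, at least 50% of the bases equalled the base 1 period on. Repeated sequence means that the 50-base word at the summit occurred more than once in the genome, and the rest were split at 50% of soft-masked bases, the lower-case letters that mark known repeats in the reference. Tandem repeats held 2012 sites without CTCF (35.1%), against 5.21% with CTCF, and repeated sequence 1427 (24.9%) against 6.44%. Unmasked sequence with a single copy held 1765 sites without CTCF (30.8%), against 83.6% with CTCF, and soft-masked single copies 444 (7.75%) against 4.52%. At tRNA genes lay 82 sites (1.43%), against 0.192% with CTCF. Of the 903 intervals within 1 kb of a TSS without CTCF, 2.21% lay at tRNA genes, 5.09% in tandem repeats and 87.2% in unmasked single copies. Across all kinds, the summit word had several copies at 2724 sites without CTCF (47.5%, 46.2 to 48.8) and at 9.53% (9.15 to 9.92) with CTCF, so a read no longer than that word matches several places. Whether such reads were kept is not given in the sources used here.

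Recovery in the other lists differed strongly by kind. Of the 82 sites at tRNA genes, 58 (70.7%, 60.1 to 79.5) were in at least 1 other cohesin list. The share was 144 of 2012 (7.16%, 6.11 to 8.37) in tandem repeats and 101 of 1765 (5.72%, 4.73 to 6.91) in unmasked single-copy sequence. It was 23 of 1427 (1.61%) in repeated sequence and 8 of 444 (1.80%) in soft-masked single copies. With CTCF, unmasked single-copy sites were found again in 85.7% (85.2 to 86.2). The kinds also differed in which list found them: unmasked sites were met most often by SMC1 (57 sites, against 36 by distal RAD21 and 29 by del(8-13)rXII RAD21), tandem repeats by del(8-13)rXII RAD21 (71, against 50 by SMC1 and 38 by distal RAD21), and tRNA genes by distal RAD21 (52) and del(8-13)rXII RAD21 (47), with 0 by SMC1 (up to 4.48%).

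**Figure D2:**
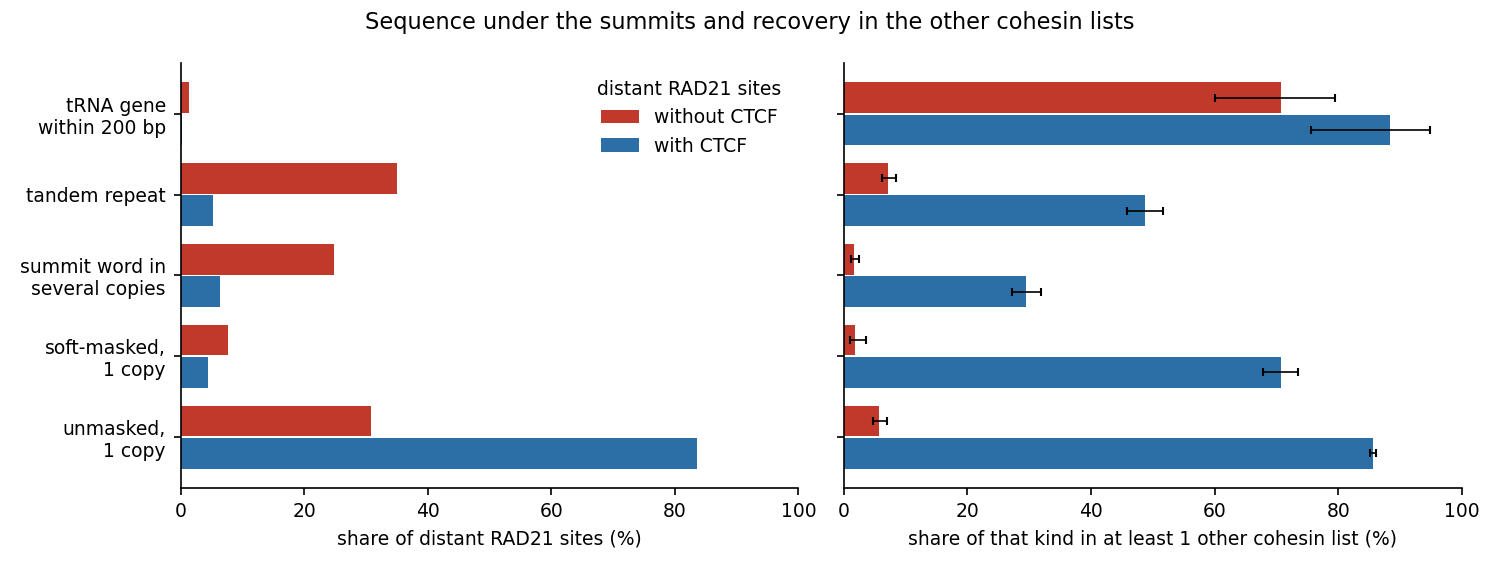
Left, share of distant RAD21 sites in each kind of summit sequence (x axis, percent), without CTCF (red) and with CTCF (blue). Right, share of each kind found in at least 1 other cohesin list (x axis, percent), with Wilson 95% intervals. Without CTCF, tRNA genes are the kind with the highest recovery, at 70.7%, although they make up 1.43% of the sites.

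tRNA genes were the kind with the highest median strength and the highest share of sites found in another cohesin list. They took 13 of the strongest 20 sites, 20 of the strongest 30 and 41 of the strongest 100, and 41 of the 74 sites found in at least 2 other lists. As no tRNA site was in SMC1, these 41 could only be in both other RAD21 lists, which together met 49 sites. The median −log10 q of the 82 tRNA sites in whole limbs was 15.2, against 3.20 at unmasked single-copy sites. Their summits stood close to the genes: 70 of 82 lay within 50 bp of the middle of the tRNA gene and 58 on the gene itself. The word GGTTCGA, on either strand, was present in 57 of the 82 windows (69.5%, 58.9 to 78.4) and in 3.66% of windows of the same length 2 kb away. It occurred in 96 of all 5730 windows (1.68%) and in 0.323% of their flanking windows. Of the 39 sites that held the word without an annotated tRNA gene within 200 bp, 0 were in another cohesin list. Of the 39, 31 were in repeated sequence, a kind with only 1.61% of its sites in another list. A count of 0 therefore sets no difference from that share.

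The values of the strongest tRNA sites show this pattern gene by gene. At n-TRccg1, an arginine tRNA gene 13.3 kb from the Kpna2 start and 1.14 kb from the nearest CTCF peak, the −log10 q was 18.98 in del(8-13)rXII RAD21, 54.6 in whole-limb RAD21 and 17.3 in distal RAD21, with no SMC1 peak. At n-TNgtt14, an asparagine tRNA gene beside Alox5ap, it was 10.1 in del(8-13)rXII, 52.1 in whole limbs and 17.7 in distal forelimbs. Peaks were called in all 3 RAD21 lists at each of these genes and in none by SMC1. At n-TAtgc10, an alanine tRNA gene beside Dhx37, the values were 11.3 in del(8-13)rXII, 49.0 in whole limbs and 11.1 in distal forelimbs. Calls in all 3 RAD21 lists without SMC1 were also made at n-TVcac7 beside Trim41 (18.04 in del(8-13)rXII, 46.5 in whole limbs, 23.2 in distal forelimbs) and at n-TGgcc5 beside Hes7, a clock gene of the forming somites (18.1 in del(8-13)rXII, 31.8 in whole limbs, 20.2 in distal forelimbs). Not every strong tRNA site was found again: those at n-TPcgg3 beside Aurkb (20.3) and n-TIaat6 beside Mok (17.3) were in no other cohesin list. A neighbour of the first, n-TGtcc6, also near Aurkb, had 11.2 in del(8-13)rXII, 35.2 in whole limbs and 18.4 in distal forelimbs.

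RAD21 and SMC1 lists also differed over tRNA genes as a whole. Of 386 autosomal tRNA genes, 120 (31.1%, 26.7 to 35.9) were under a peak of RAD21 in del(8-13)rXII, 183 (47.4%, 42.5 to 52.4) under whole-limb RAD21 and 131 (33.9%, 29.4 to 38.8) under distal RAD21. SMC1 covered 2 (0.518%, 0.142 to 1.87), and its list holds 22617 intervals, against 16065 in the distal RAD21 list. What part library, depth, antibody or fixation has in this was not tested. The CTCF lists covered 12 to 29 tRNA genes each. Of the 183 genes under a whole-limb interval, 119 were also under del(8-13)rXII RAD21 and 128 under distal RAD21, while of the 203 without one, 1 was under del(8-13)rXII RAD21 and 3 were under distal RAD21. Of all 386 tRNA genes, 88 lay under a site without CTCF. By amino acid, the sites took 9 of 28 glycine, 9 of 23 arginine and 8 of 15 proline tRNA genes, and 0 of 57 cysteine tRNA genes, of which whole-limb RAD21 covered 4.

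**Figure D3:**
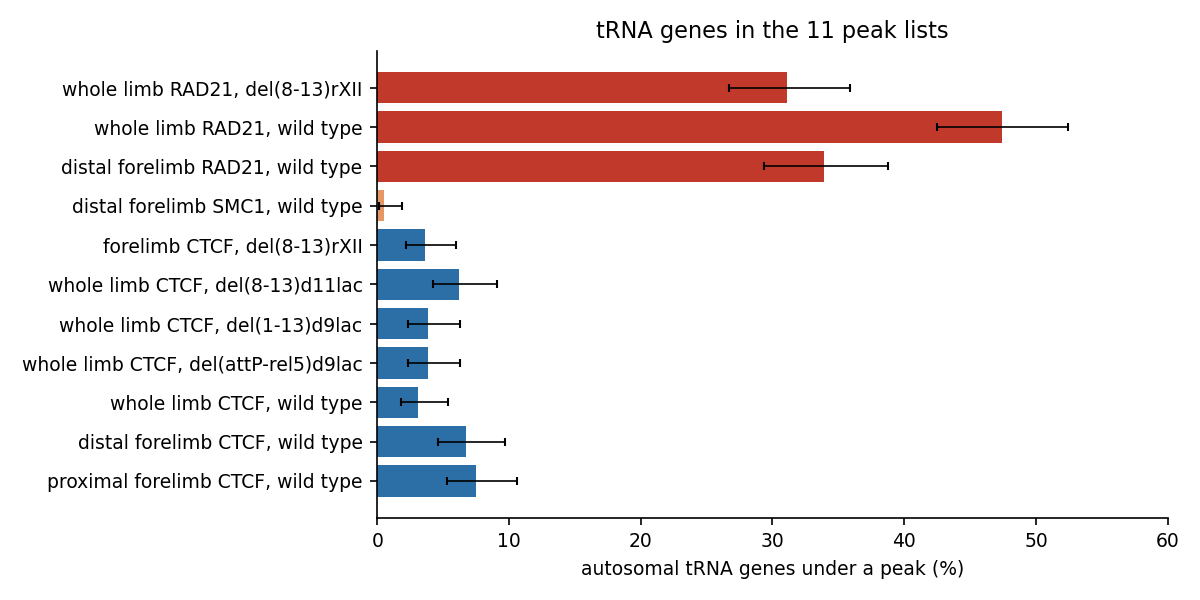
Share of the 386 autosomal tRNA genes under a peak (x axis, percent) in each of the 11 peak lists (y axis), with Wilson 95% intervals; red, RAD21; orange, SMC1; blue, CTCF. The RAD21 lists lie at 31.1% to 47.4%, SMC1 at 0.518%.

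Tandem repeats were the largest kind. The strongest of all sites, in the Dclk2 intron, had a −log10 q of 19.1 in del(8-13)rXII RAD21 and 61.7 in whole limbs, with no peak in distal RAD21 or SMC1; its repeat has a period of 43 bases. The site 378 kb from Etaa1, with a 24-base period, had 7.45 in del(8-13)rXII and 54.4 in whole limbs, and again neither distal list had a peak. A site beside Ryk, a Wnt receptor gene, had 10.7 in del(8-13)rXII, 39.7 in whole limbs and 2.96 in SMC1. Of the 15 strongest tandem sites, 13 had a peak in del(8-13)rXII RAD21, 3 in SMC1 (beside Ryk, Klhl18 and Sspn) and 0 in distal RAD21. The libraries that shared them, whole-limb RAD21 of both genotypes, also share a strain background, and the distal libraries are of another; the part of strain was not tested. A CTCF peak of a deletion library lay within 1 kb of 178 of the 2012 tandem sites (8.85%), 83 of them in the ChIPmentation list of del(8-13)rXII. Sequence likeness was widespread: 2919 of the 5730 sites (50.9%) resembled another site over at least 100 bases at 80% identity or more. The largest such family held 1156 sites on all 19 autosomes, 96.0% of them tandem repeats.

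In unmasked single-copy sequence, 4 sites were in all 3 other cohesin lists, and a tandem repeat in an intron of Gabbr2, which encodes a subunit of the GABA-B receptor, was the fifth. The site 141 kb from Tbl1xr1, whose product is part of the NCoR corepressor complex, had a −log10 q of 8.58 in del(8-13)rXII RAD21, 55.1 in whole-limb RAD21, 10.98 in distal RAD21 and 14.1 in SMC1. The nearest CTCF peak was 20.9 kb away. The site 89.2 kb from Ssbp2, which encodes a single-stranded DNA-binding partner of LIM-domain complexes, had 5.96 in del(8-13)rXII RAD21, 39.2 in whole limbs, 23.2 in distal RAD21 and 19.1 in SMC1, and CTCF lay 2.23 kb off. These are the strong examples, with a peak in every cohesin library.

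The other sites found in all lists were weaker in whole limbs. The site 462 kb from Clint1, a clathrin adaptor gene, had 3.36 in del(8-13)rXII RAD21, 14.97 in whole limbs, 3.28 in distal RAD21 and 3.93 in SMC1. At the Gabbr2 repeat the values were 4.34 in del(8-13)rXII RAD21, 22.3 in whole limbs, 2.28 in distal RAD21 and 5.13 in SMC1. A site 2.68 kb from Wwox, an oxidoreductase gene, had 6.01 in del(8-13)rXII RAD21, 3.27 in whole limbs, 13.3 in distal RAD21 and 20.5 in SMC1. Its nearest wild-type CTCF peak was 1009 bp away, just past the 1 kb limit, and a deletion library had CTCF within 1 kb. Values of different lists depend on the depth of each and set no order between libraries.

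Some other unmasked sites were called in several lists as well. A site 198 kb from Cdh11, a cadherin gene of mesenchyme, had 17.8 in whole limbs, 3.92 in distal RAD21 and 6.07 in SMC1, with CTCF 193 kb away and no peak in del(8-13)rXII. A site 648 kb from Cited2, a transcriptional coregulator gene, had 22.5 in whole limbs and 5.07 in distal RAD21. Nearer to a gene, one in exonic sequence 3.03 kb from a start of Tle3, a Groucho-type corepressor gene, had 7.38 in whole limbs, 9.36 in distal RAD21 and 3.77 in SMC1. In all, 17 unmasked single-copy sites were in at least 2 other lists. These and the other genes of this paragraph were named after their values had been seen.

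**Figure D4:**
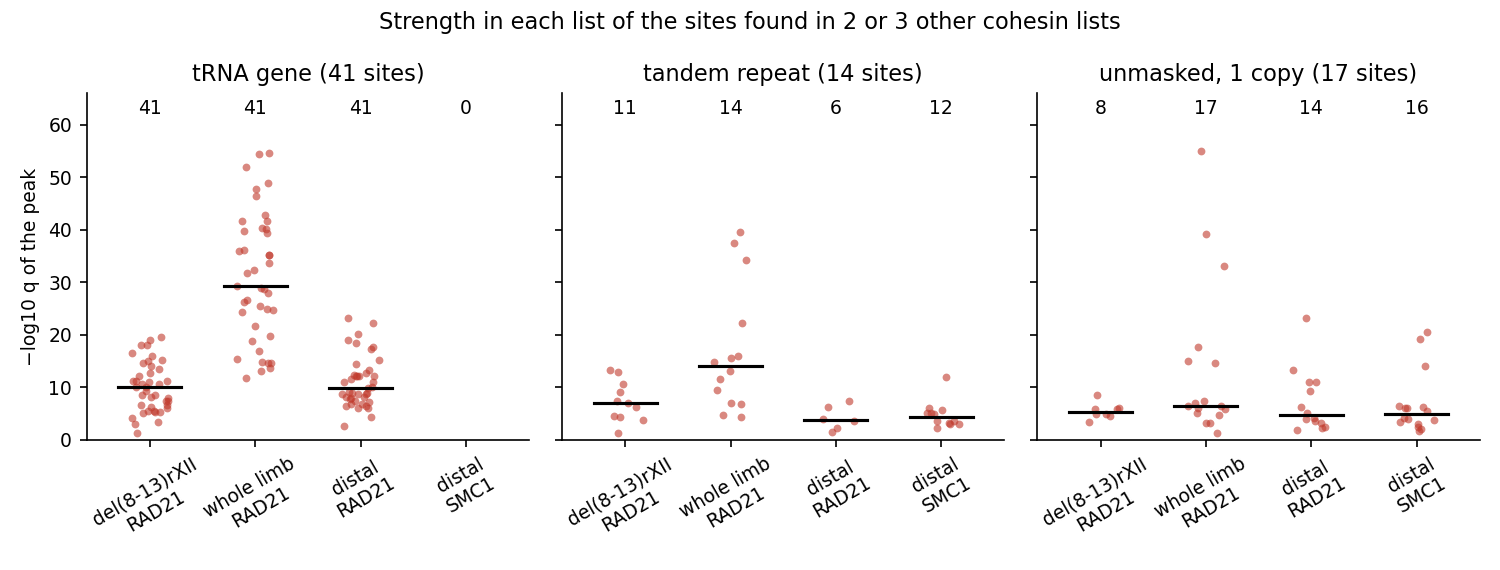
Strength (y axis, −log10 q) in the 4 cohesin lists (x axis) of sites without CTCF found in 2 or 3 other lists, for 41 sites at tRNA genes, 14 in tandem repeats and 17 in unmasked single-copy sequence; points are sites, lines medians, and numbers above give the sites with a peak. No tRNA site has an SMC1 peak, while 16 of the 17 unmasked sites have one. The sites were picked by the same lists that are shown, so these counts follow in part from that choice.

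Genes of limb development had a site of any kind nearby about as often as other genes. Counted by gene, one in unmasked single-copy sequence lay near them more often, as it did near endothelial genes. Counted by site, unmasked sites with and without CTCF had overlapping shares near limb genes. Of 136 genes in 8 limb lists, 50 (36.8%, 29.1 to 45.1) had at least 1 site within 100 kb of a TSS, against 35.6% of 20780 autosomal protein-coding genes. The median was 0 sites per gene in both. Sites in unmasked single-copy sequence lay within 100 kb of 31 of the 136 (22.8%, 16.5 to 30.5), against 12.0% of all genes. By limb list this ran from 2 of 25 distal patterning genes (8.00%, 2.22 to 25.0) to 8 of 15 mesenchymal genes (53.3%, 30.1 to 75.2). Of endothelial genes, 5 of 13 had one (38.5%, 17.7 to 64.5). The other lists gave 1 of 13 muscle, 0 of 12 blood, 1 of 12 neural, 1 of 9 surface ectoderm and 0 of 12 housekeeping genes. Sites found in another cohesin list lay near 3 of the 136, against 2.93%. Seen from the sites, 67 of 5730 (1.17%, 0.922 to 1.48) lay within 100 kb of a limb gene, against 1.75% (1.59 to 1.93) of distant sites with CTCF and 1.78% of all intervals. In unmasked single-copy sequence alone, the shares were 2.21% (1.62 to 3.01) without CTCF and 1.92% (1.73 to 2.12) with CTCF, intervals that overlap. Of the 67, 39 were unmasked single copies, 21 tandem repeats, 6 repeated and 1 soft-masked, and 0 lay at a tRNA gene. Their median −log10 q was 3.09, 2 reached 10, and 4 were in another cohesin list. Over all 5730 sites the share in another list was 5.83%, and a count this small sets no difference from it. By list, genes with a site numbered 10 of 15 for limb mesenchyme and connective tissue (66.7%, 41.7 to 84.8) and 5 of 25 for distal limb patterning (20.0%, 8.86 to 39.1). In the other limb lists they numbered 6 of 16 for proximal limb patterning, 1 of 8 for limb identity, 8 of 17 for the hedgehog pathway, 6 of 19 for the apical ridge and FGF, 7 of 16 for the BMP pathway and 7 of 20 for cartilage and joint. Lists for other cell types of the dissected tissue gave 8 of 13 for muscle, 8 of 13 for endothelium, 5 of 12 for blood, 2 of 12 for neural cells and 2 of 9 for surface ectoderm, and housekeeping genes 4 of 12. With so few genes the interval of each list but the mesenchymal one reaches or includes the share over all genes.

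**Figure D5:**
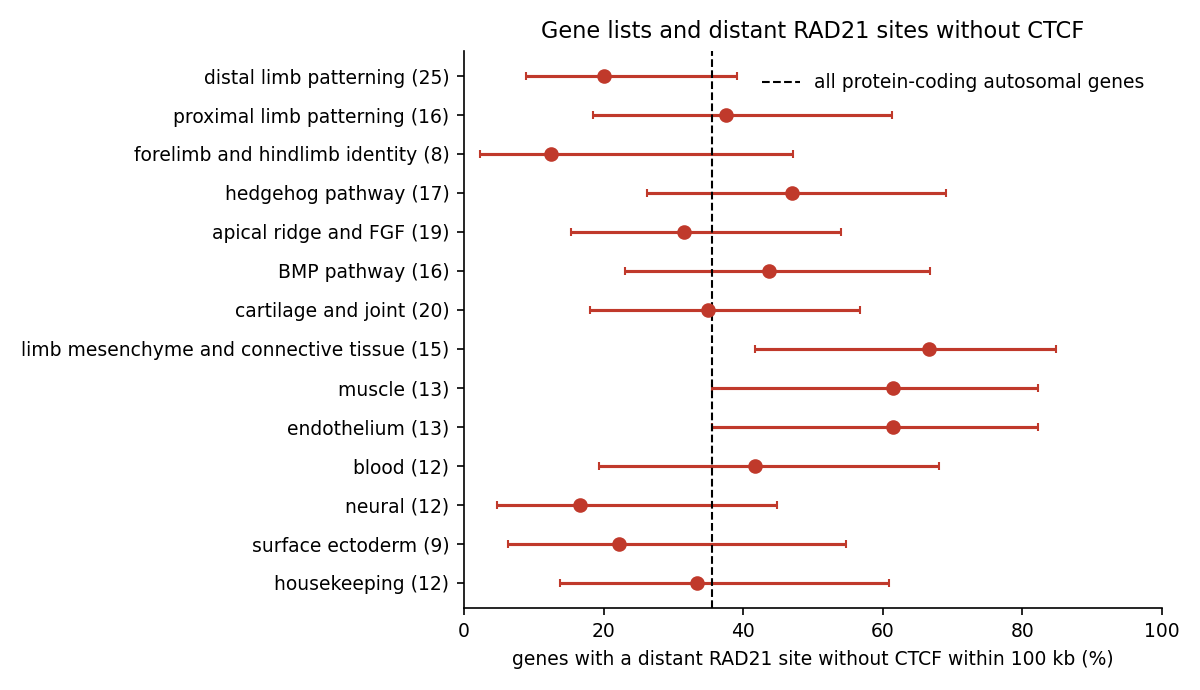
Share of the genes of each list (y axis, number of genes in brackets) with a distant RAD21 site without CTCF within 100 kb of a TSS (x axis, percent), with Wilson 95% intervals; the dashed line marks all 20780 autosomal protein-coding genes at 35.6%. Limb mesenchyme lies at 66.7% and distal limb patterning at 20.0%.

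Of the 67 sites near limb genes, 4 were in another cohesin list, beside a share of 5.83% over all sites. Of these 4, 3 lay near hedgehog genes, too few to set that list apart. Beside Gli3, the transcription factor that represses hedgehog targets in the anterior limb, a site 94.99 kb before the TSS had a −log10 q of 7.75 in whole-limb RAD21 and 4.23 in SMC1, and a deletion library had CTCF near it. Another, 68.0 kb before the TSS, had 7.37 and was in no other list. Gas1, a hedgehog co-receptor gene, had 3 sites, of which those at 4.22 kb (3.50 in whole-limb RAD21, 3.21 in SMC1) and 66.2 kb (3.09 in whole-limb RAD21, 2.30 in SMC1) were shared with SMC1. Ptch1, the hedgehog receptor gene, had a weak site at 2.36 kb (1.58) inside an element that RefSeq annotates as Hedgehog-responsive enhancers. Gli2, an activator of the pathway, had one 6.39 kb before its TSS (3.14). Etv5, an FGF-induced ETS factor gene, had 2, both in tandem repeats (6.16 and 1.91).

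The signalling genes of the ridge and of bone growth had mostly weak sites or repeats. Fgf8, the main ligand of the apical ridge, had a tandem repeat at 34.5 kb (9.02) in no other list. Fgf9 had 2 tandem sites, and that at 41.0 kb (4.19) was shared with distal RAD21 (3.28); both are closer to Micu2. Spry2, a feedback inhibitor of FGF signalling, had 3, the nearest unmasked and 1.72 kb from the TSS (2.72). Near Sp8, a zinc-finger gene of the ridge, the site was a tandem repeat (4.67) in an intron and closer to Abcb5, at 18.5 kb. Among BMP genes, Bmpr2, a type II receptor gene, had 2 (4.76 and 4.23), the first closer to Fam117b, at 5.16 kb, Smad7, an inhibitory Smad gene, a tandem repeat (8.77), and Nog, a BMP antagonist gene, an unmasked site at 5.58 kb (2.85). Id2, a BMP target, had a site at 95.3 kb (2.76).

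For cartilage, Pthlh and Pth1r, a ligand and its receptor that control chondrocyte maturation, each lay near 1 of the 2 strongest sites of the limb genes. The site 19.7 kb from Pthlh had a −log10 q of 12.4, carried the CTCF motif printed above and had CTCF in a deletion library within 1 kb, but was in no other cohesin list. That 52.7 kb from Pth1r, in an intron of Ccdc12, was a tandem repeat (23.0), also in no other list. Osr1, a joint and mesenchyme factor gene, had a site at 10.6 kb (5.73) and Hapln1, a cartilage link protein gene, one at 75.9 kb (5.18), which is closer to Vcan, at 17.7 kb.

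Patterning and mesenchymal genes had sites called in the whole-limb list alone among the cohesin lists, as 5396 of all 5730 sites were. Zfhx3, a homeobox gene, had 3 unmasked sites (4.48, 3.04 and 2.43) and Zfhx4 had 2 (2.81 and 1.90). Zeb2, a repressor gene of mesenchymal cells, had one 1.33 kb from a TSS (5.27) and another in soft-masked sequence (2.20). The site near Pdgfra, a PDGF receptor gene (7.42), was closer to Gsx2, at 8.30 kb. Among distal patterning genes, Sall1 had 2 unmasked sites (4.28 and 2.59), Tfap2b 2 in repeats (4.63 and 3.55), Lhx9 a tandem repeat closer to 2310009B15Rik (5.42) and Tfap2c a tandem repeat (4.39). Among proximal ones, Rarb, a retinoic acid receptor gene, had 2 unmasked sites (2.91 and 1.64), Emx2 one (4.44) that is closer to Pdzd8, at 34.4 kb, and Irx3 and Meis2 a tandem repeat each (5.36 and 5.28). Tbx5, which sets up the forelimb bud, had an unmasked site in its intron at 7.46 kb (3.84) and a tandem repeat (2.33). None of the sites in this paragraph was in another cohesin list, beside a share of 5.83% over all sites.

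Around the HoxD locus, 2 sites lay within 1 Mb of Hoxd13, beside 25 distant RAD21 sites with CTCF. Chromosome 2 as a whole held 1.91 sites without CTCF per Mb, and counts this small set no difference from it. One lay 234 kb from Atp5g3 on the centromeric side (−log10 q 4.52) and the other 116 kb from Mtx2 on the telomeric side (2.74), both in unmasked sequence and in no other cohesin list. The nearest CTCF peaks were 39.3 kb and 7.02 kb away.

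Outside the lists, 11 of the 1368 intervals between neighbouring TSSs with an unmasked site held at least 2 such sites that another cohesin list also had. The intervals described here were chosen after their values had been seen. The interval of 1408 kb between the TSSs of Zfp608, a zinc-finger gene, and Gramd3 on chromosome 18 held 16 sites, 12 of them unmasked, and 4 of these were in another list. The strongest of the 4 had a −log10 q of 14.7 in whole-limb RAD21, 5.85 in del(8-13)rXII RAD21 and 3.47 in SMC1, and it carried the CTCF motif. The others had 9.69 with SMC1 at 4.51, 8.24 with SMC1 at 3.05, and 3.26 with distal RAD21 at 2.41 and SMC1 at 1.79. Others of the 11 lay beside Sox11, a SoxC transcription factor gene (3 of 4 unmasked sites, highest 11.1 with SMC1 at 4.49), Gli3 (2 of 5), Gas1 (2 of 3) and Hes1, a Notch target gene (2 of 2, highest 6.80 with SMC1 at 2.72). The rest lay beside Zfp990 and Zfp982 of the chromosome 4 array described below, between Csnk1g3 and Zfp608, and beside Tomm20, Zfp36l1 and Slc14a2. Near Klf4, a zinc-finger factor gene, sites at 53.7 kb (10.96, SMC1 5.69) and 582 kb (11.6, del(8-13)rXII RAD21 4.50) were each in 1 other list, while that at 5.16 kb (10.4) was in none. Those at 53.7 kb and 5.16 kb carried the CTCF motif. A site 419 kb from Tbx3, a gene of limb patterning, had 8.98 with SMC1 at 2.92.

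Enhancers annotated in RefSeq, many of them from the VISTA collection tested in transgenic embryos, held few sites of either class. Of 1010 autosomal enhancers, 14 held a site without CTCF (1.39%, 0.827 to 2.31), against 59 (5.84%, 4.56 to 7.46) with a distant RAD21 site with CTCF. These counts differ about as the sizes of the classes do, 5730 and 22404. Among the 192 active in limb the counts were 5 (2.60%, 1.12 to 5.95) and 16 (8.33%, 5.19 to 13.1). The VISTA limb enhancer mm466, in a gene-poor stretch 179 kb from Efcab1, held 2 sites (3.86 and 3.45), the second shared with SMC1 (2.63). The limb enhancers mm1464 beside Tomm20 (3.95), mm1692 beside Reep3 (3.41) and mm1061 in the interval beside Zfp608 (6.50) held 1 each, in no other list. An annotated limb enhancer upstream of Tbx2, a limb patterning gene, held a weak tandem repeat (1.96).

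A CTCF motif was rare at the sites. The matrix matched within 50 bp of the summit at 275 sites (4.80%, 4.28 to 5.38). The cutoff was the score that 5% of windows 2 kb from the strongest whole-limb CTCF summits pass. No share was computed for windows flanking the sites themselves, so 4.80% has no background of its own beside it. Distant sites with CTCF reached 76.1% (75.5 to 76.6), and all intervals 60.4%. The 903 intervals within 1 kb of a TSS without CTCF gave 11.2% (9.29 to 13.4). Unmasked single-copy sites stood higher, at 150 of 1765 (8.50%, 7.29 to 9.89), and tandem repeats lower, at 39 of 2012 (1.94%). The strongest unmasked sites with the motif were beside Zfp706 (27.7 in whole limbs, 11.6 in del(8-13)rXII RAD21), Tspan14 (19.9, in no other cohesin list) and Oca2 (15.7, in none), and each had CTCF of a deletion library within 1 kb. Such peaks of the deletion libraries, which the rule did not use, lay within 1 kb of 361 sites (6.30%, 5.70 to 6.96), against 92.6% (92.2 to 92.9) of distant sites with CTCF and 75.4% of all intervals. Of the 361, 301 were near CTCF in 1 deletion list, 43 in 2, 10 in 3 and 7 in all 4. By allele the counts were 141 for del(8-13)rXII, 122 for delHoxd(8-13)d11lac, 110 for delHoxd(1-13)d9lac and 72 for delHoxd(attP-rel5)d9lac. Over all intervals, the shares near CTCF of these lists were 64.0%, 73.1%, 67.6% and 69.5%, in the same order. The lists held 35091, 59369, 40424 and 41720 autosomal intervals, and the first came by ChIPmentation, so the counts set no order between alleles.

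The largest groups of neighbouring sites lay at gene families on a few chromosomes. The median distance from a site to the next was 261 kb. Joined where summits lay up to 20 kb apart, 451 sites (7.87%, 7.20 to 8.60) formed 104 clusters of at least 3. The 22404 distant sites with CTCF, a longer and so denser list, gave 19.8% (19.3 to 20.4), and no value at matched density was computed. The largest clusters lay in an array of KRAB zinc-finger genes on distal chromosome 4, a family that represses transposable elements. The array, with 24 of the clusters, held 183 sites over 2.42 Mb (chr4:145390537-147812502), beside 79 distant RAD21 sites with CTCF. The clusters with the most sites held 16 between Zfp990 and its neighbours, 15 at Zfp981 and Zfp992, 13 at Zfp986, 12 at Zfp982 and Zfp985 and 12 at Zfp989 and Rex2. Of the 183 sites, 105 were in repeated sequence and 65 in unmasked single copies, the median −log10 q was 4.31 (highest 19.2), and 10 were in another cohesin list. The genes with the most sites within 100 kb were all of this array: Zfp990 had 25, Zfp980 24, Zfp978 and Zfp982 21 each, Zfp988 20, Zfp981 19, Zfp985 18, Zfp991 17, and Zfp989 and Rex2 16 each.

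Clusters at tRNA genes were smaller but were found again far more often. Beside the histone genes on chromosome 13, 7 sites at tRNA genes near Btn1a1 and Abt1 (chr13:23437049-23467103) had 6 in another list and a highest −log10 q of 47.8. The neighbouring 7 near Btn2a2 and Hist1h4h (chr13:23501009-23526518) had 5. On chromosome 17, 7 sites near Zfp213, 5 of them at tRNA genes, had 3 in another list, and 5 near Dhx37 on chromosome 5 had 4. No site of these clusters had an SMC1 peak. Chromosome 13 held 32 of the 82 tRNA sites.

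Short words differed between the unmasked single-copy sites and their flanks, along with base composition. Their median G+C content was 49.3%, against 42.3% in windows 2 kb away. The E-box word CAGCTG, a core bound by many basic helix-loop-helix factors, was in 309 of 1765 windows (17.5%, 15.8 to 19.3), against 7.54% of flanking windows. CTGCAG, a palindrome of the same letters, gave 17.3% against 7.62%. Unmasked distant sites with CTCF gave 12.6% against 9.36% for the E-box word and 18.1% against 9.46% for the palindrome. The homeodomain core TAATTA was in 2.72% against 8.13%, and TGANTCA, the AP-1 word, in 6.12% against 6.35%. Both strands were searched, and a match is a description of letters, not of a bound factor.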

How the data were processed

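ChIP-seq peak lists of 11 libraries from E12.5 mouse limbs were used (7 CTCF, 3 RAD21 and 1 SMC1, with 1 library per group); H3K27ac samples were not analysed here. Reads were trimmed with cutadapt, mapped with Bowtie2 to mm10 and peaks called with MACS2, per the submitters' processing notes, which give the tools without their settings. Each deposited peak has a −log10 p and a −log10 q of its summit from the authors' peak caller. The authors' lists also hold a fold enrichment at the summit and a score, which in the deposited files is 10 times the −log10 q as a whole number. These are the authors' own values and were used to describe and rank peaks within a list. Depth and settings could change which weak sites were called.

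From these lists, peak entries of the same interval were merged and the summit with the largest −log10 q kept. Sites were compared with the other lists by an overlap of at least 1 bp, and with CTCF within 1 kb. TSSs came from GENCODE M21, and sequence, tRNA genes and enhancers from RefSeq's GRCm38.p6. A CTCF matrix was built from the 2000 strongest whole-limb CTCF summits and searched within 50 bp of each summit. Families of like sites were found with blastn 2.17.0 (at least 80% identity over 100 bp). Python 3.11.15, numpy 2.4.6, pandas 2.3.3, scipy 1.17.1, matplotlib 3.10.9 and samtools 1.23.1 were used, and overlaps, distances and intervals were checked on simulated data.

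With 1 library per group, no test between groups could be made, and shares carry Wilson 95% intervals for counting error. The sites and gene lists were chosen with earlier results of these data known. Genes were named by rule: sites found in all 3 other cohesin lists (up to 20), the 10 genes with the most sites within 100 kb, the 5 clusters with the most sites, up to 4 genes of each limb list by number and then strength of sites, and sites within 1 Mb of Hoxd13, passing over predicted genes. The kinds of sequence, tRNA genes, further words, gene-poor intervals and other named sites were chosen after their values had been seen. One strong site at a tRNA gene is not reported here.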

Additional observations from a re-analysis of the deposited data

How the results depend on the processing

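No paired analysis was possible because each group had 1 library. Alternatives changed 1 choice at a time, and a value is given where it left its own 95% interval. With a whole-limb −log10 q of at least 10, the sites numbered 259, against 5730. Their shares were then 26.6% for distal RAD21 (2.34% before), 11.2% for SMC1 (1.99%), 36.7% for del(8-13)rXII RAD21 (2.88%), 1.54% for all 3 lists (0.0873%), 25.1% for deletion CTCF (6.30%), 8.11% for the CTCF motif (4.80%), 12.0% for clusters (7.87%) and 0.772% for limb genes (1.17%). With CTCF required to be over 5 kb away, distal RAD21 gave 1.63%, del(8-13)rXII RAD21 2.02% and clusters 5.32%. When a CTCF peak counted only on overlap, deletion CTCF gave 10.6% and clusters 9.56%. With all 7 CTCF lists used, SMC1 gave 1.58%, del(8-13)rXII RAD21 2.16% and the motif 4.23%. With 50% of a site covered, distal RAD21 gave 1.80%, SMC1 1.05% and all 3 lists 0.0175%. With other-list peaks of at least 10, distal RAD21 gave 0.436%, SMC1 0.140%, del(8-13)rXII RAD21 0.628% and all 3 lists 0%. Deletion CTCF on overlap gave 4.85%. The motif gave 8.31% within 100 bp, and 0.820% at the score that 1% of windows 2 kb from the strongest CTCF summits pass. Clusters gave 4.64% at 10 kb, 12.4% at 50 kb, 6.82% for a TSS over 5 kb away and 6.83% for every annotated TSS. Limb genes gave 0.663% at 50 kb and 2.91% at 250 kb.

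The last 3 alternatives were chosen after seeing the data. Without the chromosome 4 array, clusters gave 5.16%. Without tRNA genes, distal RAD21 gave 1.45%, del(8-13)rXII RAD21 2.09% and clusters 7.14%. With unmasked single-copy sites alone, SMC1 gave 3.23%, del(8-13)rXII RAD21 1.64%, all 3 lists 0.227%, deletion CTCF 7.31%, the motif 8.50%, clusters 3.85% and limb genes 2.21%. The cause of these changes was not tested. Most sites were weak, the depth behind the lists is unknown, and an absent peak in a shorter list may reflect its depth, which was not tested.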

Other observations

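RAD21 and SMC1 lists differed at tRNA genes with CTCF nearby as well, for which no cause was tested. Of the 43 distant RAD21 sites with CTCF that lay at a tRNA gene, del(8-13)rXII RAD21 covered 31 (72.1%, 57.3 to 83.3), distal RAD21 34 (79.1%, 64.8 to 88.6) and SMC1 4 (9.30%, 3.68 to 21.6). Over all kinds of sequence, SMC1 covered 71.6% of the distant sites with CTCF. By product, 7 of 25 lysine and 7 of 21 alanine tRNA genes lay under a site without CTCF, while none of 11 histidine and 8 tryptophan tRNA genes did, of which whole-limb RAD21 covered 4 and 3. Beside 88 of all 386 tRNA genes, counts this small set no difference for these products.

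Families of like sequence differed in how often they were found again. The largest, 1156 sites of mostly tandem repeats, had 87 in another cohesin list (7.53%) and a median −log10 q of 4.56. The next, of 478 sites, had 2 (0.418%) and a median of 2.78, and that of 243 sites had 2 (0.823%) and 3.07. In all, 7 families of at least 50 sites held 2279 sites (39.8%). Around Zfp608, 2 further unmasked sites between Csnk1g3 and Zfp608 were shared with distal RAD21: one had 12.2 in whole-limb RAD21 and 2.77 in distal RAD21, the other 11.2 and 3.82. The strongest sites near Zfp608 itself, at 6.90 kb (16.6) and 385 kb (13.3), were in no other cohesin list.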
